A study of Rattus norvegicus with 45 samples.

Results

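Opioid, cannabinoid and adenosine receptors were followed by 7 genes: Oprm1, Oprd1, Oprk1 and Oprl1 (the mu, delta, kappa and nociceptin opioid receptors), Cnr1 (the CB1 cannabinoid receptor), and Adora1 and Adora2a (the adenosine A1 and A2a receptors). They are 7 of the 14218 genes that the array measures under a symbol of their own. Every probe set of the rat array whose platform symbol is one of these genes was taken, which gave 15 of 31099 probe sets. Each of the 7 genes had at least 1 probe set, and none of the 15 carried a second gene symbol. The study treated 2-month-old male Sprague-Dawley rats for 21 days by subcutaneous minipump with risperidone at 5 mg/kg/d, with haloperidol at 0.25 mg/kg/d or with vehicle, a dilute acetic acid solution. It asked which changes antipsychotic drugs alone leave in brain. There were 15 rats, 5 per treatment, and each rat gave a striatum, a hippocampus and a frontal cortex, so that 45 arrays were measured. The rats carried no disease model, no transgene and no other treatment, the striatum was not divided into its parts, and each drug was given at 1 dose and 1 time.

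All of these receptors couple to G proteins of the inhibitory class except the A2a receptor, which couples to the stimulatory G protein. In striatum the A2a receptor sits together with the dopamine D2 receptor on the projection neurons of the indirect pathway, and the 2 receptors have opposed effects on cyclic AMP. The CB1 receptor acts at axon terminals, where it reduces transmitter release, and the opioid receptors answer to peptides made by projection neurons, interneurons and other cells. Haloperidol blocks dopamine D2 receptors, and risperidone blocks dopamine D2 and serotonin 2A receptors.

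Values are log2 intensities after Robust Multi-array Average (RMA), which corrects background and normalizes between arrays. A level of 1 probe set cannot be set against that of another, so genes were compared between regions and treatments only. Differences came from limma, with 1 mean for each of the 9 combinations of region and drug and a random block for the rat. A call means an adjusted p (Benjamini-Hochberg) below 0.05 together with a difference of 1.2-fold or more. The 18659 probe sets with a mean log2 value of at least 5.88 were tested, among them 7 of the 15 receptor probe sets: both of Adora2a, Adora1 and Cnr1, and 1369646_at of Oprl1. Adora2a 1368300_at passed through striatum alone and Oprl1 1369646_at through hippocampus and frontal cortex. The other 8 probe sets, with all of Oprm1, Oprd1 and Oprk1, lay under that limit and were fitted with all 31099 probe sets. The p-values rest on 1 spread for each probe set, pooled over the 9 groups, and not on the spread of the groups compared. A striatal p-value thus also draws on hippocampal and cortical arrays, which for some probe sets spread less.

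Markers placed the arrays in their labelled regions. In vehicle rats, 12 of 12 measured projection neuron markers were higher in striatum than in hippocampus and than in frontal cortex, 9 of 9 pyramidal neuron markers were lower there, and 5 of 6 dentate and hippocampal markers were higher in hippocampus than in frontal cortex. The hippocampal arrays had a different distribution, with a median intensity of 107 to 110.4, against 87.9 to 92.1 in striatum and 89.9 to 93.1 in frontal cortex. With 1 marker list of a neighboring tissue read in each region, the markers stood over 0.5 log2 units above the median of their region on 10 arrays. These were 4 striatal arrays (pyramidal neuron markers, risperidone replicates 3 and 5 and haloperidol replicates 3 and 5), 3 hippocampal arrays (choroid plexus and meningeal markers, risperidone replicates 2 and 3 and haloperidol replicate 3) and 3 frontal cortex arrays (olfactory bulb markers, risperidone replicates 2 and 5 and haloperidol replicate 5). None of these 10 was a vehicle array. Leaving them out keeps 35 arrays, with smaller risperidone and haloperidol groups in every region. Whether a call lost then was lost through the tissue or through the smaller groups was not tested. For the called drug differences the outcome without the 10 arrays is given, as it is for some of the uncalled ones. The choroid plexus and meningeal markers, read in striatum as well, were over 0.5 above the striatal median on 5 striatal arrays, risperidone replicate 5 (by 1.31), haloperidol replicates 1 and 2 (by 1.73 and 0.88) and vehicle replicates 1 and 4 (by 1.89 and 0.75). Values without these 5, a setting chosen after seeing the data, stand beside the striatal calls.

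The receptors fell into different regional orders, which the plot of levels by region shows. Adora2a and Oprk1 were highest in striatum, Oprl1 was lowest there, Adora1 was highest in hippocampus, and Cnr1 was highest in striatum and lowest in frontal cortex. In vehicle rats, 6 of the 7 tested probe sets were called between striatum and frontal cortex (4 higher and 2 lower in striatum), against 46% of all probe sets tested. Between striatum and hippocampus 7 of 7 were called (4 higher, 3 lower), against 62.4% of all, and between hippocampus and frontal cortex 4 of 7 (4 higher, 0 lower), against 53.2% of all. With all probe sets tested, 11 of 15, 14 of 15 and 7 of 15 receptor probe sets were called, against backgrounds of 39.5%, 53.3% and 46.6%. With a background this wide, the number called does not set the receptors apart, and the sizes of the differences carry the description.

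**Figure D1:**
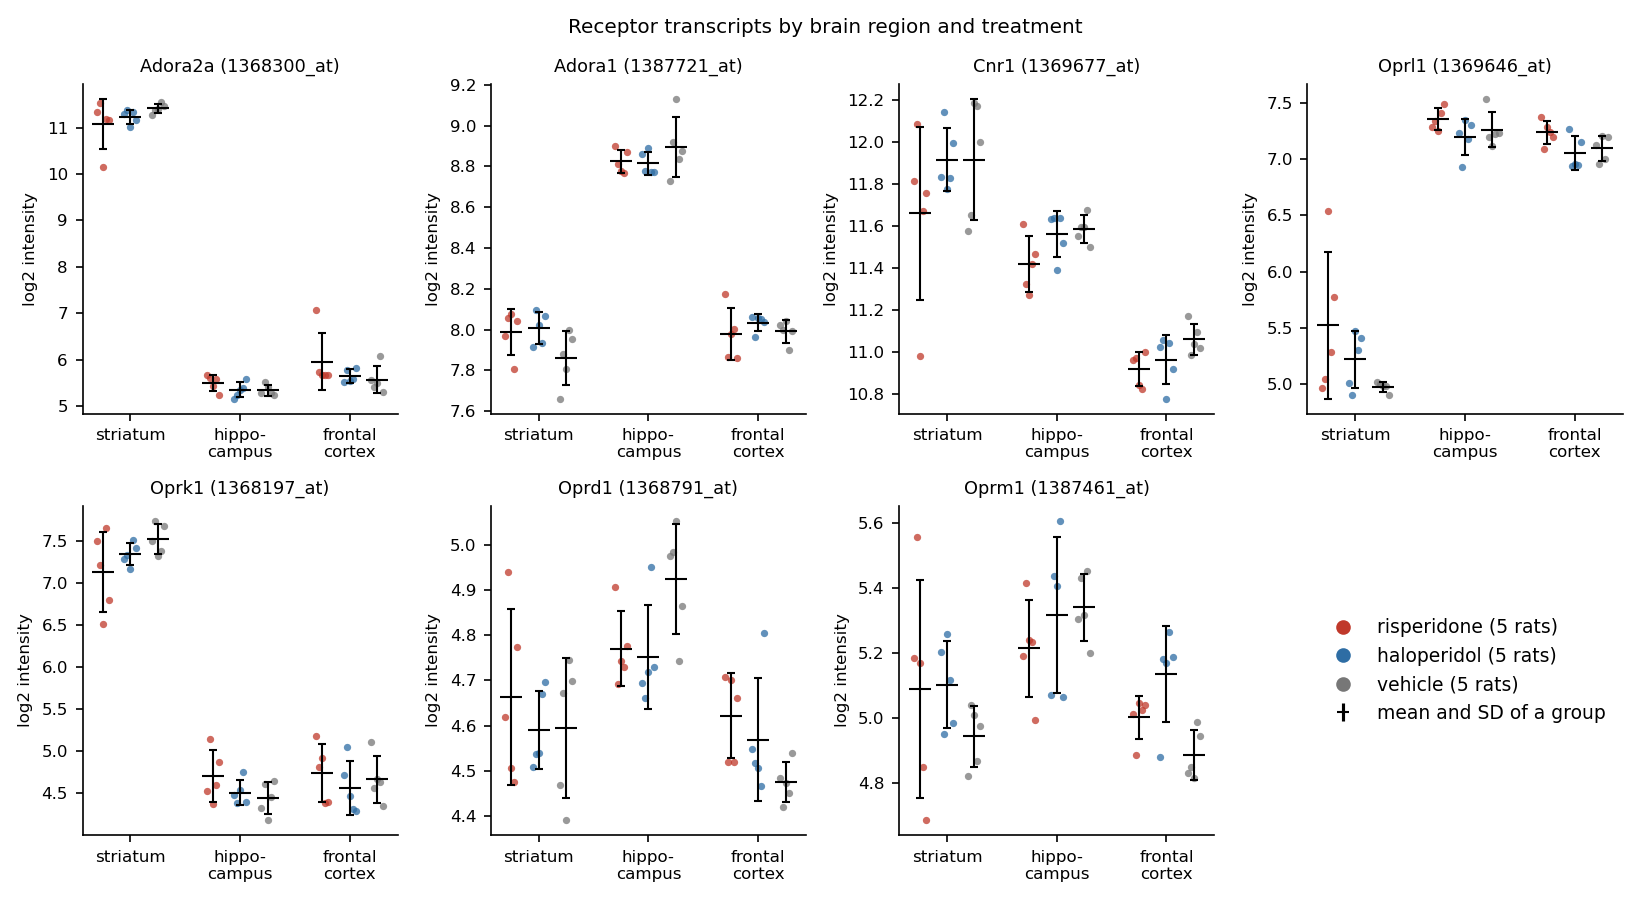
Log2 intensity of the 7 receptors on every array, 1 panel per gene (the probe set with the highest mean), by region and treatment; points are rats, bars are the mean and SD of 5 rats. Adora2a and Oprk1 stood highest in striatum and Oprl1 stood lowest there, with risperidone replicate 3 apart from the other striatal arrays for Adora2a and Oprl1.

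Adora2a, which encodes the A2a receptor of the indirect pathway, had the widest regional range. In the 5 vehicle rats its probe set 1368300_at read 11.27, 11.39, 11.41, 11.55 and 11.46 in striatum, against 5.27, 5.51, 5.41, 5.27 and 5.23 in hippocampus. In frontal cortex the same rats read 5.57, 5.40, 5.49, 6.07 and 5.31. Every striatal array lay far above every array of the other regions. The difference of striatum was 6.08 against hippocampus and 5.85 against frontal cortex (standard error 0.17 each). Since the means of the other regions lay under the limit of 5.88, no fold is given. The second probe set, 1368301_at, was higher in striatum by 4.09 and 4.13. Hippocampus and frontal cortex overlapped, with a difference of -0.23 for 1368300_at and 0.04 for 1368301_at, neither of which was called with the deposited scaling.

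Oprk1 encodes the kappa receptor, whose ligand dynorphin is made by the projection neurons of the direct pathway. Its probe set 1368197_at read 7.50, 7.74, 7.33, 7.38 and 7.69 in striatum of vehicle rats. It read 4.33, 4.61, 4.18, 4.45 and 4.65 in hippocampus and 5.12, 4.56, 4.68, 4.63 and 4.35 in frontal cortex. The striatal arrays again stood clear of the rest. Oprk1 was higher in striatum by 3.08 against hippocampus and by 2.86 against frontal cortex, and these regions, both under the limit of 5.88, differed from each other by -0.22, which was not called with the deposited scaling. Probe set 1387102_at gave 1.95 and 1.88 and probe set 1368198_at gave 1.25 and 0.98 for the same striatal differences. For 1368198_at the difference of -0.27 between hippocampus and frontal cortex was also called, but not without vehicle replicate 1 (-0.22, adjusted p = 0.0782 in limma) or vehicle replicate 5 (-0.17, adjusted p = 0.161).

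Oprl1, the nociceptin receptor, had the opposite order. In vehicle rats 1369646_at read 5.02, 5.00, 4.98, 4.98 and 4.90 in striatum. It read 7.53, 7.20, 7.12, 7.23 and 7.24 in hippocampus and 7.12, 6.96, 7.20, 7.005 and 7.20 in frontal cortex. The vehicle striata lay close together and below every array of the other regions. The difference of striatum was -2.29 against hippocampus and -2.12 against frontal cortex. Its probe sets 1387661_a_at (-1.50 and -1.52) and 1369645_at (-1.83 and -1.77) gave the same direction. Between hippocampus and frontal cortex 1369646_at differed by 0.17, which was not called.

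Adora1, the A1 receptor that dampens transmitter release, was highest in hippocampus. Probe set 1387721_at averaged 7.86 ± 0.13 in striatum, 8.90 ± 0.15 in hippocampus and 7.99 ± 0.06 in frontal cortex of vehicle rats (SD, n = 5 each). The difference of striatum from hippocampus was -1.04, and that of hippocampus from frontal cortex was 0.91. Striatum and frontal cortex overlapped for this probe set, with a difference of -0.13 that stayed under 1.2-fold (adjusted p = 0.0456). The second Adora1 probe set, 1370584_a_at, gave -1.36, 1.01 and -0.35 for the same comparisons, and all 3 were called. The last call was lost with the neighboring tissue markers as a covariate (-0.25, adjusted p = 0.0640).

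Cnr1, the CB1 receptor, was the only one of the 7 whose called differences put the 3 regions in a full order with both probe sets. Probe set 1369677_at averaged 11.92 ± 0.29 in striatum, 11.58 ± 0.07 in hippocampus and 11.06 ± 0.07 in frontal cortex of vehicle rats, and 1387674_at averaged 9.25 ± 0.26, 8.96 ± 0.09 and 8.17 ± 0.07 (SD, n = 5 each). Striatum exceeded frontal cortex by 0.85 (1369677_at) and 1.08 (1387674_at) without overlap. The step of striatum over hippocampus was smaller, 0.33 (adjusted p = 0.00397) and 0.29 (adjusted p = 0.0238), and its arrays overlapped. With the marker covariate both fell to 0.25 and were not called, and for 1387674_at the call was also lost without vehicle replicate 3, 4 or 5 (0.28, 0.22 and 0.25, adjusted p up to 0.133 in limma). The step of hippocampus over frontal cortex was 0.52 and 0.79.

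Oprm1 and Oprd1, the mu and delta receptors, gave low values in every region. Probe set 1387461_at of Oprm1 read between 4.69 and 5.61 over the 45 arrays and 1369109_at between 3.12 and 3.89, while 1368791_at of Oprd1 read between 4.39 and 5.05. In vehicle rats Oprm1 1387461_at was higher in hippocampus than in frontal cortex by 0.46 and lower in striatum than in hippocampus by 0.40 (difference -0.40), and Oprd1 likewise by 0.45 and by 0.33 (difference -0.33). Striatum and frontal cortex differed by 0.06 for Oprm1 1387461_at and by 0.12 for Oprd1, and neither was called. Probe set 1369109_at of Oprm1 was called in none of the 3 comparisons. For Oprd1 the difference from hippocampus was under 1.2-fold without vehicle replicate 3 (-0.25), and was not called then.

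The shift of the hippocampal arrays bears on each comparison with hippocampus. Over all tested probe sets the median difference was -0.30 for striatum against hippocampus, 0.25 for hippocampus against frontal cortex and -0.06 for striatum against frontal cortex. Of all called probe sets, 13.7% were higher in striatum than in hippocampus, against 43.5% when each array was centred on its median and 49.6% after quantile normalization. For hippocampus against frontal cortex the share higher was 87.8%, against 46.0% and 49.3%, and for striatum against frontal cortex it was 39.7%, against 41.5% and 49.8%. The large differences kept their direction under both scalings: Adora2a 1368300_at was 6.35 and 6.36 higher in striatum than in hippocampus (centred and quantile), Oprk1 1368197_at was 3.36 and 3.28 higher, Oprl1 1369646_at differed by -2.01 and -2.01 and Adora1 1387721_at by -0.76 and -0.71. The hippocampal calls of Oprm1 1387461_at and Oprd1 were lost under both scalings, at 0.19 and 0.23 for Oprm1 and 0.19 and 0.24 for Oprd1 against frontal cortex.

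Small differences between hippocampus and frontal cortex changed sign, as the plot of region differences under the 3 scalings shows. Oprl1 1369646_at gave 0.17 as deposited, and -0.10 and -0.10 when centred and quantile normalized. Oprl1 1369645_at gave 0.05, -0.21 and -0.19, and Adora2a 1368301_at gave 0.04, -0.22 and -0.21. Oprm1 1369109_at gave 0.14, -0.12 and 0.01, so that it changed sign when centred, and between striatum and hippocampus it gave -0.09, 0.19 and 0.04 and changed sign under both scalings. Other differences between hippocampus and frontal cortex grew, to -0.49 and -0.46 for Adora2a 1368300_at (deposited -0.23), to -0.33 and -0.27 for Oprk1 1387102_at (deposited -0.07) and to -0.53 and -0.48 for Oprk1 1368198_at (deposited -0.27). The arrays of these 3 probe sets overlapped with the deposited scaling and did not overlap with either of the others. Cnr1 1369677_at kept its direction at 0.26 and 0.31, and the call was lost with centred arrays alone. Between striatum and hippocampus Cnr1 was 0.60 and 0.67 higher in striatum for 1369677_at and 0.57 and 0.65 for 1387674_at under these scalings.

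**Figure D2:**
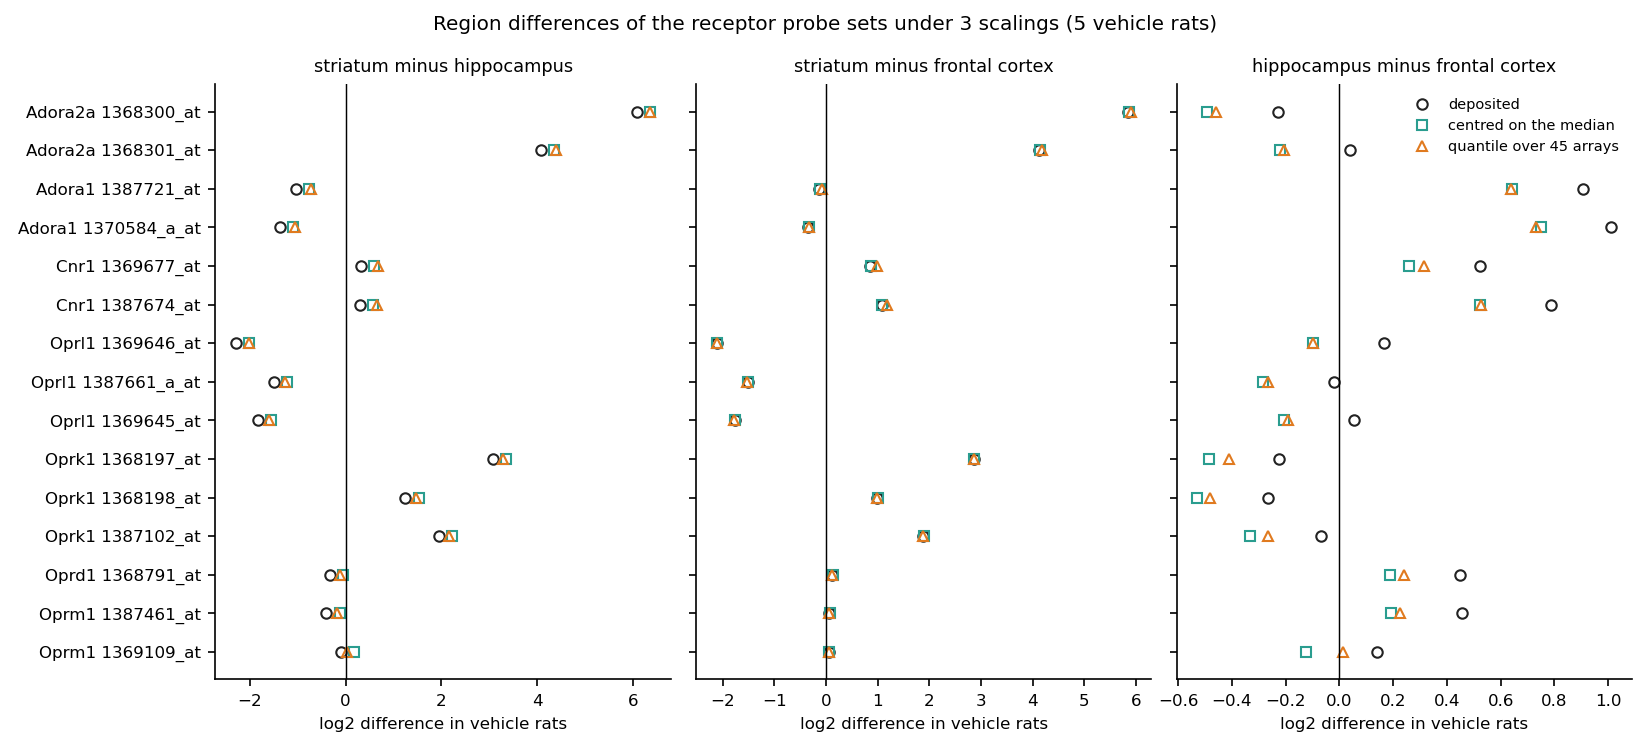
Log2 difference between regions in the 5 vehicle rats for the 15 receptor probe sets, with the deposited values, with each array centred on its median and after quantile normalization over the 45 arrays. The large striatal differences of Adora2a, Oprk1 and Oprl1 stayed on their side of 0 under all 3 scalings, while hippocampus against frontal cortex moved to lower values when the arrays were rescaled.

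In striatum after risperidone 2 of the 7 tested receptor probe sets were called, against 3.63% of all 18659 probe sets tested (678, of which 165 rose and 513 fell). The 2 were 1 of Cnr1 (lower) and 1 of Oprl1 (higher). In the fit of all 31099 probe sets a second probe set of Oprl1 was called as well, which made 3 of 15, against 2.8% of all. The median difference of the 7 was -0.25, and of all tested probe sets -0.02. For 12 projection neuron markers it was -0.28 (0 called higher, 2 lower), and for 9 pyramidal neuron markers 0.51 (1 called higher, 0 lower). The median of the 7 thus lay near that of the projection neuron markers. In bulk tissue, fewer cells of a type and less RNA per cell cannot be told apart. Neither drug gave a called difference in a receptor in hippocampus or frontal cortex, and haloperidol gave none in striatum.

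Cnr1 was lower in striatum after risperidone by 1387674_at. This probe set read 8.87, 9.17, 8.26, 8.59 and 8.68 in the risperidone striata, 9.17, 9.50, 9.06, 8.43 and 8.92 in the haloperidol striata and 8.93, 9.06, 9.35, 9.58 and 9.35 in the vehicle striata. Of the 5 risperidone rats, 4 lay below every vehicle rat, and replicate 2 lay within the vehicle range. The difference of risperidone was -0.54 (standard error 0.13, 95% interval -0.81 to -0.27, adjusted p = 0.0137 in limma), a 1.46-fold fall. The second probe set, 1369677_at, read 11.82, 12.08, 10.98, 11.67 and 11.76 after risperidone and 11.58, 11.65, 12.18, 12.17 and 12.00 after vehicle. These groups overlapped, with a difference of -0.25 (95% interval -0.49 to -0.02, adjusted p = 0.193).

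The Cnr1 call of 1387674_at depended on single rats and on the setting. Without risperidone replicate 3 it was -0.43 (adjusted p = 0.0985) and without vehicle replicate 4 it was -0.46 (adjusted p = 0.0690), while it held in the other 13 fits that left out 1 rat. It was also lost at -0.54 when striatum was fitted on its own arrays (adjusted p = 0.206), at -0.39 without the 10 arrays high in neighboring tissue markers (adjusted p = 0.221) and at -0.40 with those markers as a covariate (adjusted p = 0.154). Without the 5 striatal arrays high in choroid plexus and meningeal markers it held, at -0.53 (adjusted p = 0.0346). For haloperidol the Cnr1 differences were -0.24 (1387674_at, adjusted p = 0.389) and -0.001 (1369677_at, adjusted p = 0.998).

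Oprl1 was higher in striatum after risperidone by 1369646_at. It read 4.97, 5.04, 6.54, 5.29 and 5.77 in the risperidone striata, 5.01, 4.90, 5.47, 5.31 and 5.41 in the haloperidol striata and 5.02, 5.00, 4.98, 4.98 and 4.90 in the vehicle striata. Replicates 3 and 5 of risperidone carried most of the difference, although 4 of the 5 risperidone rats lay above every vehicle rat. The difference of risperidone was 0.54 (standard error 0.16, 95% interval 0.22 to 0.87, adjusted p = 0.0409 in limma). The SD was 0.65 in the risperidone striata and 0.05 in the vehicle striata, while this interval rests on the spread pooled over all groups. No fold is given, since the vehicle striata lay under the limit of 5.88. Even the highest risperidone striatum, at 6.54, lay below the lowest hippocampus or frontal cortex, at 6.93. Haloperidol gave 0.24 (adjusted p = 0.469), with 3 of 5 rats above every vehicle rat.

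In the fit of all probe sets Oprl1 1369645_at read 4.34, 4.48, 4.82, 4.29 and 4.44 in the risperidone striata and 4.39, 4.16, 4.01, 4.17 and 3.91 in the vehicle striata, a difference of 0.34 (standard error 0.10, adjusted p = 0.0352). Of the risperidone rats, 3 lay above every vehicle rat. Oprl1 1387661_a_at differed by 0.11 (adjusted p = 0.592). The calls of both Oprl1 probe sets were lost without the 10 arrays high in neighboring tissue markers (0.13, adjusted p = 0.580 for 1369646_at and 0.23, adjusted p = 0.149 for 1369645_at). Without the 5 striatal arrays high in choroid plexus and meningeal markers the call of 1369646_at was lost (0.49, adjusted p = 0.167) and that of 1369645_at held (0.45, adjusted p = 0.0261). Leaving out 1 rat ended the call of 1369646_at in 9 of 15 fits, each of the 5 vehicle rats, haloperidol replicates 4 and 5 and risperidone replicates 3 and 5, and without risperidone replicate 3 the difference was 0.29 (adjusted p = 0.233). For 1369645_at it ended the call in 6 of 15 fits, those without risperidone replicate 2 or 3 or vehicle replicate 2, 3, 4 or 5 (adjusted p up to 0.173).

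Pyramidal neuron markers moved with the values of Oprl1 1369646_at and Adora2a 1368300_at in striatum, as the plot of receptors against pyramidal neuron markers shows. The mean log2 of 9 measured pyramidal neuron markers ran between 5.64 and 8.11 in the risperidone striata (median 6.17), between 5.996 and 7.32 in the haloperidol striata (6.41) and between 5.62 and 6.26 in the vehicle striata (5.83). On the 4 striatal arrays where this mean was over 0.5 above the striatal median, Oprl1 1369646_at read 5.41 to 6.54, against 4.90 to 5.31 on the other 11, so that these 4 were its 4 highest striata. The same 4 were the 4 lowest for Adora2a 1368300_at, at 10.16 to 11.17 against 11.19 to 11.55. Adora2a 1368301_at overlapped between these arrays, at 8.52 to 9.76 against 9.74 to 10.28. Cnr1 1387674_at overlapped too, at 8.26 to 9.06 against 8.43 to 9.58, and so did Oprk1 1368197_at, at 6.51 to 7.43 against 7.22 to 7.74. Risperidone replicate 3, whose marker mean was 1.90 above the striatal median, had the lowest striatal value of both Adora2a and both Cnr1 probe sets and of Oprk1 1368197_at, and the highest of Oprl1 1369646_at and 1369645_at. Its mean of 12 projection neuron markers was also 0.98 below the striatal median (a deviation of -0.98). The mean log2 of 8 measured choroid plexus and meningeal markers ran between 7.12 and 8.91 in the risperidone striata (median 7.59), between 6.95 and 9.32 in the haloperidol striata (7.86) and between 6.82 and 9.48 in the vehicle striata (7.22). The part of these tissue differences in the receptor changes was not tested.

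Adora2a gave lower values in striatum after risperidone that did not pass the test. Probe set 1368301_at read 9.91, 10.11, 8.52, 9.74 and 9.66 in the risperidone striata, 9.87, 9.90, 9.63, 9.86 and 9.76 in the haloperidol striata and 9.80, 9.998, 10.10, 10.28 and 9.95 in the vehicle striata. The difference of risperidone was -0.44 (standard error 0.16, 95% interval -0.76 to -0.11, adjusted p = 0.0972 in limma), and replicate 3, at 8.52, lay far below the next rat, at 9.66. Without that rat the difference was -0.17 (adjusted p = 0.493), without the 10 arrays high in neighboring tissue markers it was -0.12 (adjusted p = 0.688), and without risperidone replicate 2 it was -0.57 and past the threshold (adjusted p = 0.0292). Probe set 1368300_at read 11.34, 11.54, 10.16, 11.19 and 11.16 after risperidone, with a difference of -0.34 (adjusted p = 0.282). Haloperidol differed by -0.18 and -0.22 (1368300_at and 1368301_at, adjusted p = 0.678 and 0.514).

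The other receptors did not pass the test in striatum. Oprk1 1368197_at read 7.50, 7.22, 6.51, 7.66 and 6.80 after risperidone, against 7.50, 7.74, 7.33, 7.38 and 7.69 after vehicle. These groups overlapped, with a difference of -0.39 (standard error 0.18, adjusted p = 0.204 in limma) that was -0.23 without risperidone replicate 3 and -0.05 without the 10 arrays high in neighboring tissue markers. Probe sets 1368198_at and 1387102_at differed by -0.15 and -0.14. Adora1 1387721_at differed by 0.13 after risperidone (adjusted p = 0.243) and by 0.15 after haloperidol (adjusted p = 0.278). Its values were 7.80 to 8.07 after risperidone and 7.92 to 8.10 after haloperidol, against 7.66 to 7.999 after vehicle, so that all 3 groups overlapped. The differences of Oprm1 after risperidone were 0.15 and 0.14 (adjusted p = 0.442 and 0.330) and that of Oprd1 was 0.07 (adjusted p = 0.660). For haloperidol in striatum limma called 0 of 7 receptor probe sets, with 1 at an unadjusted p under 0.05, against 0.338% of all.

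In hippocampus limma called 0 of 7 receptor probe sets after risperidone (1 at an unadjusted p under 0.05), against 0.113% of all, and 0 of 7 after haloperidol (0 at that limit), against 0%. The probe set past the unadjusted limit was Cnr1 1387674_at. It read 8.88, 8.72, 8.41, 8.67 and 8.71 in the risperidone hippocampi, 9.02, 8.72, 8.74, 8.93 and 8.81 in the haloperidol hippocampi and 8.87, 9.07, 9.00, 9.00 and 8.86 in the vehicle hippocampi. Of the risperidone rats, 4 lay below every vehicle rat, and the difference was -0.28 (standard error 0.13, adjusted p = 0.284). Cnr1 1369677_at differed by -0.17 (adjusted p = 0.484). Oprd1, in the limma fit of all probe sets, differed by -0.17 after haloperidol (adjusted p = 1).

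In frontal cortex limma called 0 of 7 receptor probe sets after risperidone (1 at an unadjusted p under 0.05), against 3.37% of all, and 0 of 7 after haloperidol (0 at that limit), against 0.177% of all. Adora2a 1368300_at was the one past the unadjusted limit. It read 7.07, 5.72, 5.67, 5.67 and 5.66 in the risperidone cortices, 5.51, 5.78, 5.53, 5.59 and 5.82 in the haloperidol cortices and 5.57, 5.40, 5.49, 6.07 and 5.31 in the vehicle cortices. A single array, risperidone replicate 1, lay above all others, and without it the difference of 0.39 (adjusted p = 0.210) was 0.11 (adjusted p = 0.711). On that array the mean of the projection neuron markers was 0.69 above the median of frontal cortex, and the part of striatal tissue in this value was not tested. The second Adora2a probe set, 1368301_at, read 5.70 to 6.01 in the risperidone cortices and 5.67 to 6.16 in the vehicle cortices. It had no risperidone array above the vehicle range. Oprm1 1387461_at read 4.88, 5.18, 5.17, 5.27 and 5.19 after haloperidol, against 4.83, 4.85, 4.82, 4.99 and 4.95 after vehicle. There 4 of 5 haloperidol rats lay above every vehicle rat, and the difference of 0.25 (standard error 0.11) had an adjusted p of 0.285 in the limma fit of all probe sets.

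**Figure D3:**
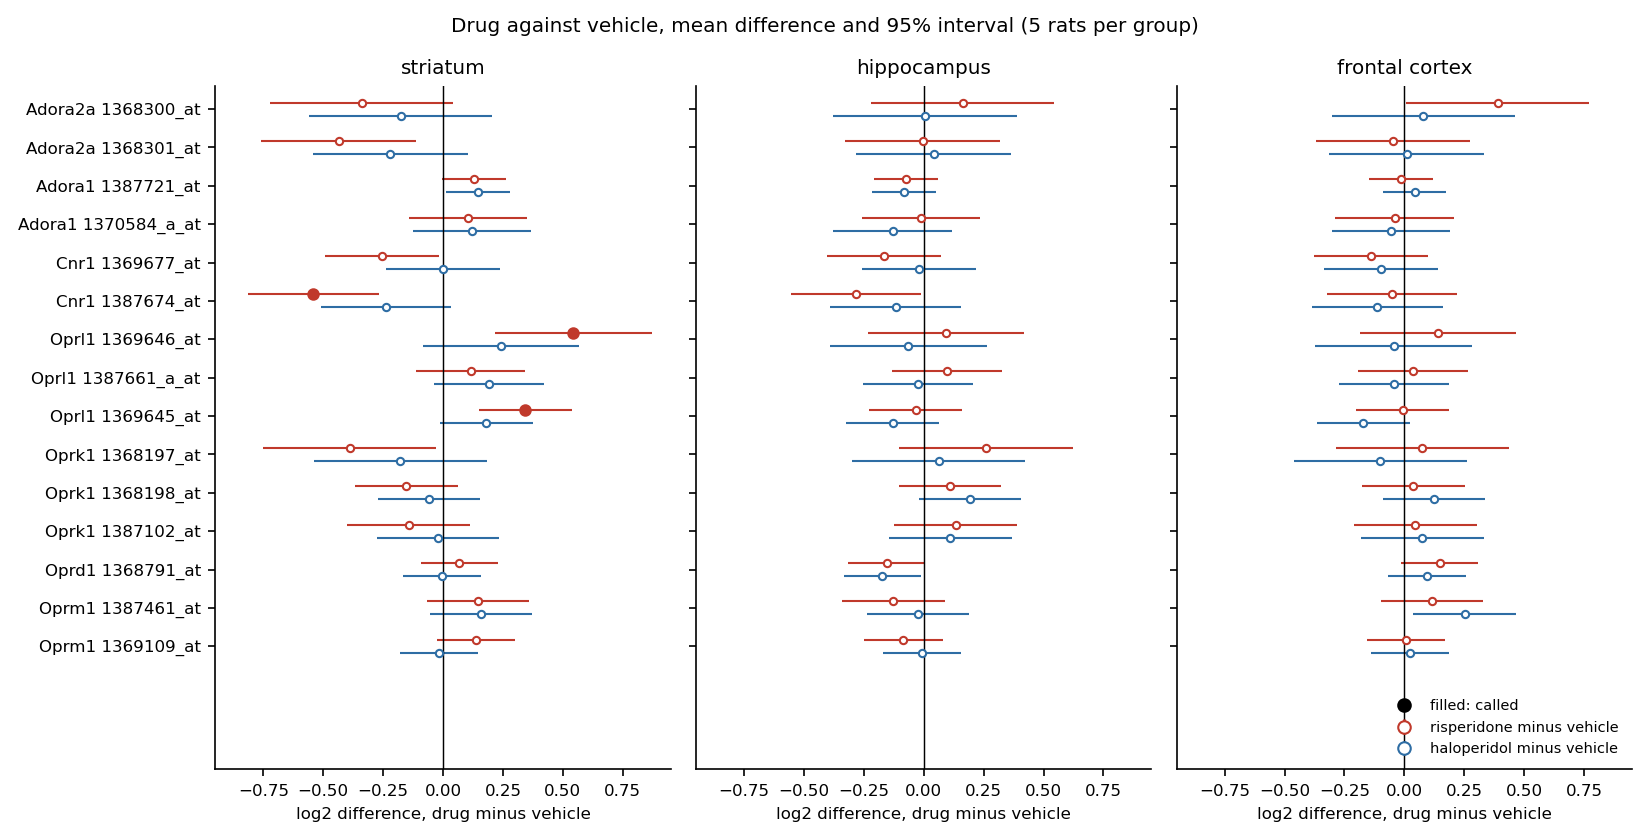
Log2 difference of risperidone and of haloperidol from vehicle with its 95% interval for the 15 receptor probe sets in 3 regions (5 rats per group); filled points were called. The 3 called values are all of risperidone in striatum, Cnr1 1387674_at at -0.54 and Oprl1 1369646_at and 1369645_at at 0.54 and 0.34.

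Between the drugs no receptor difference was called. Risperidone against haloperidol gave 0 of 7 in striatum (2 at an unadjusted p under 0.05 in limma), against 0.0161% of all, 0 of 7 in hippocampus (0 at that limit), against 0%, and 0 of 7 in frontal cortex (0 at that limit), against 0.761%. The largest differences in striatum were -0.30 for Cnr1 1387674_at and -0.25 for 1369677_at, and 0.30 for Oprl1 1369646_at (adjusted p = 1 each). A call for risperidone and none for haloperidol therefore does not show that the drugs differed on these receptors.

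Whether the effect of a drug differed between regions was tested in the same fit. For risperidone limma called 0 of 7 between striatum and frontal cortex (2 at an unadjusted p under 0.05), against 2.93% of all, 0 of 7 between striatum and hippocampus (4 at that limit), against 1.66%, and 0 of 7 between hippocampus and frontal cortex (0 at that limit), against 1.31%. For haloperidol the counts were 0 of 7 in each (0, 1 and 0 at that limit), against 0.0268%, 0% and 0%. The effect of risperidone on Adora2a 1368300_at was lower in striatum than in frontal cortex by 0.73 (difference -0.73, standard error 0.24, adjusted p = 0.0687), and it passed the threshold without risperidone replicate 2 (-0.90, adjusted p = 0.0462) or replicate 4 (-0.83, adjusted p = 0.0425). Over the 15 fits that left out 1 rat, this Adora2a difference ran from -0.90 to -0.52 (adjusted p up to 0.176 in limma). It includes the frontal cortex of risperidone replicate 1, which stood apart for this probe set. For Cnr1 1387674_at this difference was -0.49 (standard error 0.17, adjusted p = 0.0872), and it passed without risperidone replicate 2 (-0.63, adjusted p = 0.0434). The other probe sets of Adora2a and Cnr1 did not pass the unadjusted limit here. Cnr1 1369677_at averaged 11.66 after risperidone and 11.92 after vehicle in striatum, and 10.92 and 11.06 in frontal cortex. Adora2a 1368301_at averaged 9.59 and 10.02 in striatum, and 5.85 and 5.89 in frontal cortex. Over the 7 tested receptor probe sets the median of this difference was -0.11. For Oprl1 1369646_at the effect in striatum exceeded that in hippocampus by 0.45 (adjusted p = 0.208) and that in frontal cortex by 0.40 (adjusted p = 0.237). None of these differences between regions is thus shown.

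The precursors of the opioid peptides also differed between regions. Penk, the precursor of the enkephalins that bind mu and delta receptors, was higher in striatum of vehicle rats than in hippocampus by 4.75 and than in frontal cortex by 3.91. Pdyn, the precursor of the dynorphins that bind the kappa receptor, was higher in striatum by 0.79 and 0.86 against hippocampus and by 3.28 and 2.66 against frontal cortex (1369882_at and 1383294_at). Pnoc, the precursor of nociceptin, had the direction of its receptor Oprl1, with -1.97 against hippocampus and -1.34 against frontal cortex. In striatum Penk averaged 13.63 ± 0.24 after risperidone, 13.68 ± 0.11 after haloperidol and 13.53 ± 0.08 after vehicle (SD, n = 5 each). Pdyn 1369882_at averaged 7.89 ± 0.46, 8.13 ± 0.28 and 8.46 ± 0.22 in that order of treatments, with a difference of risperidone of -0.58 (adjusted p = 0.158 in limma), and Pdyn 1383294_at gave -0.31 (adjusted p = 0.422). Pnoc differed by 0.01 (adjusted p = 0.977). In frontal cortex Penk differed by 0.45 after risperidone (adjusted p = 0.127), and by 0.61 without risperidone replicate 4, which passed the threshold (adjusted p = 0.0329). It was 0.29 without risperidone replicate 1 (adjusted p = 0.332), 0.30 without the 10 arrays high in neighboring tissue markers (adjusted p = 0.417) and 0.24 with those markers as a covariate (adjusted p = 0.638).

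Genes that make, remove or signal for these ligands were taken from 4 lists, and 9 probe set calls were made among them in the comparisons of drugs. Of the opioid peptides and their processing enzymes, 7 of 10 listed genes were tested (8 probe sets), and none was called against vehicle or between drugs. Of the endocannabinoid genes 8 of 13 were tested, with 13 probe sets. In striatum after risperidone 0 rose and 1 fell, Abhd6, which hydrolyses the endocannabinoid 2-AG (-0.31, adjusted p = 0.0303), and in frontal cortex 1 rose and 0 fell, Abhd4, a lipase of anandamide synthesis (0.26, adjusted p = 0.00989). Set against 3.63% of all probe sets in striatum and 3.37% in frontal cortex, 1 call in 13 probe sets is no result about the list. Of 19 tested genes (24 listed, 27 probe sets) of receptor signaling none was called against vehicle or between drugs. The median of each of these lists in striatum after risperidone lay near that of all probe sets, -0.02, at 0.01, 0.02 and -0.05.

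Of the genes of adenosine supply and removal, 10 of 15 were tested with 14 probe sets, of which 1 rose and 2 fell in striatum after risperidone, against 3.63% of all (list median 0.02). In frontal cortex 2 of the 14 rose and 0 fell, against 3.37% of all. With so few probe sets, these counts do not set the list apart. Slc29a1 and Slc29a3, nucleoside transporters, differed by -0.38 (adjusted p = 0.0118) and 0.29 (adjusted p = 0.0386), and Entpd3, which degrades extracellular ATP, by -0.50 (adjusted p = 0.0405). In frontal cortex Adk, the kinase that clears adenosine, rose after risperidone by 0.36 and 0.31 with its 2 probe sets (adjusted p = 0.00380 and 0.00555), and it was higher after risperidone than after haloperidol by 0.36 and 0.27 (adjusted p = 0.0265 and 0.0377). Adk 1369629_at averaged 9.24 ± 0.26 in the risperidone cortices, 8.88 ± 0.05 in the haloperidol cortices and 8.88 ± 0.07 in the vehicle cortices (SD, n = 5 each). All 9 calls in these lists were lost without the 10 arrays high in neighboring tissue markers, where Adk gave 0.23 and 0.19 against vehicle, Slc29a1 gave -0.35 and Entpd3 gave -0.28. Without the 5 striatal arrays high in choroid plexus and meningeal markers Slc29a3 (0.25, adjusted p = 0.109), Entpd3 (-0.56, adjusted p = 0.0999) and Slc29a1 (-0.32, adjusted p = 0.0906) lost their calls in striatum, and Abhd6 held.

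Most of these calls also depended on single rats. Leaving out risperidone replicate 3 or vehicle replicate 4 ended the call of Slc29a1 (adjusted p up to 0.0709 in limma). For Entpd3 this happened without risperidone replicate 3 (-0.30, adjusted p = 0.238), without haloperidol replicate 1 and without each of the 5 vehicle rats. Abhd6 lost its call without risperidone replicate 1, 3 or 5 or vehicle replicate 1, 2, 3 or 5 (adjusted p up to 0.130), and Slc29a3 without risperidone replicate 2, 3 or 5 or any vehicle rat (adjusted p up to 0.133). Abhd4 lay at the limit of 1.2-fold and was under it without risperidone replicate 2 or 3 or vehicle replicate 1, 3 or 4 (0.21 to 0.26). Adk was under 1.2-fold against vehicle without risperidone replicate 2 (0.25 and 0.22 for 1369629_at and 1369630_at). Against haloperidol both probe sets of Adk lost the call without risperidone replicate 2 or haloperidol replicate 2, 3 or 4 (adjusted p up to 0.129), and 1369630_at also without haloperidol replicate 5 or risperidone replicate 3.

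A difference of the risperidone effect between regions was called for 5 of the listed genes. Adk (-0.41 and -0.29, adjusted p = 0.0147 and 0.0422 in limma for 1369629_at and 1369630_at), Entpd3 (-0.64, adjusted p = 0.0446), Slc29a1 (-0.44, adjusted p = 0.0294) and Gnal, the stimulatory G protein subunit of striatum (-0.60 and -0.55, adjusted p = 0.0308 and 0.0291 for 1384229_at and 1394575_at), had a lower effect in striatum than in frontal cortex. That made 4 of 14 probe sets of the adenosine list and 2 of 27 of receptor signaling, against 2.93% of all. Between striatum and hippocampus 2 of the 14 were called, Entpd3 (-0.68, adjusted p = 0.0435) and Slc29a1 (-0.58, adjusted p = 0.00914), against 1.66% of all. Between hippocampus and frontal cortex Rgs4, a regulator of G protein signaling, was called (1.17, adjusted p = 0.0409), 1 of 27, against 1.31% of all. No other listed gene was called in these comparisons, and none for haloperidol. The lists hold few probe sets, and these counts do not set them apart.

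These calls too depended on the setting, and all but that of Slc29a1 against hippocampus were lost without the block for the rat. Without the 10 arrays high in neighboring tissue markers 8 of the 9 were lost, with -0.28 and -0.19 for Adk, -0.14 and -0.20 for Gnal, -0.39 and -0.47 for Slc29a1 (against frontal cortex and hippocampus), -0.41 for Entpd3 against hippocampus and 0.89 for Rgs4. The exception, Entpd3 against frontal cortex, was lost with those markers as a covariate (-0.62, adjusted p = 0.126). Leaving out 1 rat ended neither the call of Adk 1369629_at nor that of Slc29a1 against hippocampus in any of 15 fits. Adk 1369630_at lost its call without 12 of the rats, all but haloperidol replicate 4 and risperidone replicates 1 and 4 (adjusted p up to 0.153). Entpd3 lost it against frontal cortex without haloperidol replicate 1, 2 or 3, risperidone replicate 1 or 3 or any vehicle rat (-0.40 without risperidone replicate 3), and against hippocampus without haloperidol replicate 1, 2 or 3, risperidone replicate 3 or vehicle replicate 2, 3, 4 or 5. Gnal 1394575_at lost it without vehicle replicate 2, 3, 4 or 5, and Gnal 1384229_at without any vehicle rat or risperidone replicate 2, 3 or 5 (adjusted p up to 0.0779). Rgs4 lost it without vehicle replicate 2, 3, 4 or 5 or risperidone replicate 2, 3 or 5 (adjusted p up to 0.129), and Slc29a1 against frontal cortex without vehicle replicate 1, 2, 4 or 5 or risperidone replicate 2 or 3 (adjusted p up to 0.103).

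Genes with the most similar pattern were found for each receptor by the correlation of log2 values over the 45 arrays, which share regions, rats and, for the striatal markers, tissue differences between arrays. These correlations are descriptions. Adora2a was most like Drd2, the D2 receptor (r = 0.998), and after the mean of each group of region and treatment was taken out the 2 genes still varied together (r = 0.888), as did Adora2a and Rgs9, a regulator of G protein signaling in striatum (r = 0.872). Oprk1 was most like Rarb (r = 0.987), Drd2 (r = 0.986), Pde1b (r = 0.984), Drd1 (r = 0.983) and Adora2a (r = 0.983). With group means out its highest values were lower, Fbxo11 at 0.646 and Rarb at 0.631.

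Oprl1 was most like Syp, a synaptic vesicle protein (r = 0.990), Pnck (r = 0.989) and Sncb, beta-synuclein (r = 0.989), and with group means out like Sncb (r = 0.899), Adgra1 (r = 0.890) and Syp (r = 0.885). Cnr1 was most like Cap1 (r = 0.946), Lmo7 (r = 0.941) and Rgs8 (r = 0.939), and with group means out like Scn3b (r = 0.825), Skil (r = 0.809), Kcns2 (r = 0.805) and Gabra4 (r = 0.799), a subunit of the GABA-A receptor. Adora1 was most like Homer3 (r = 0.973), Pkp2 (r = 0.972) and Prox1, a dentate gyrus transcription factor (r = 0.972), and with group means out like Nrgn (r = 0.655). The low probe sets of Oprm1 and Oprd1 reached 0.764 (Akap10) and 0.787 (Abraxas2).

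Probe sets of the same gene followed each other over the 45 arrays mainly through the regions. Between the representative probe set and another, r was 0.992 for Adora2a, 0.952 for Adora1, 0.920 for Cnr1, 0.946 and 0.980 for Oprl1 and 0.935 and 0.971 for Oprk1, and 0.431 for Oprm1. With group means out r was 0.659 for Adora2a, 0.492 for Adora1, 0.722 for Cnr1, 0.190 and 0.623 for Oprl1, 0.322 and 0.344 for Oprk1 and 0.375 for Oprm1. Within groups, 1387661_a_at of Oprl1 thus followed its partner least.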

How the data were processed

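RNA of striatum, hippocampus and frontal cortex of 15 rats was hybridized to 45 Affymetrix rat arrays. The authors deposited linear intensities made with RMA in R 2.7.2, per the submitters' processing notes, and the sources used here do not say whether regions were normalized together. Log2 values of the deposited intensities were used. An array has no read depth, and the number of arrays limits the precision. Groups came from the sample labels. Platform annotation named 1 gene for 14122 of the 18659 probe sets at or above the 40th percentile of mean log2 value, several for 306 and none for 4231. A mean for each of 9 groups was fitted with limma 3.58.1 in R 4.3.3, with a random block for the rat (correlation within a rat 0.227, with 39.9 degrees of freedom), and p-values were adjusted by Benjamini-Hochberg within each of 18 comparisons. The 8 receptor probe sets under the filter were taken from a fit of all 31099 probe sets.

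The animal number in the labels pairs the regions of a rat. The deviations of its 3 regions had a positive mean correlation in all 15 rats (mean r 0.120 to 0.504). The lowest r of a single pair of regions was 0.0138, in risperidone replicate 4. No 2 arrays of the same region and treatment held identical values. The method was tested on simulated data. Tables were read with data.table (version 1.17.8), and figures were drawn with Python 3.11.15, pandas 2.3.3 and matplotlib 3.10.9. A gene was represented by its probe set with the highest mean, genes like a receptor were the 5 with the highest correlation, and other pathway genes were named where called, with Penk, Pdyn and Pnoc always. The receptors and lists were chosen with earlier results of these data known. In all 28 other settings were tried, 15 of which left out 1 rat and 1 of which, without striatal arrays high in choroid plexus and meningeal markers, was chosen after seeing the data.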

Additional observations from a re-analysis of the deposited data

Results flagged for a closer look

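In 11 of 135 groups of 5 rats (15 probe sets in 9 groups), 1 rat stood apart from the others, with a gap to the next rat that was a large share of the range of its group. Chance gives such a rat in about 1 in 20 groups. The gap is given as a share of the range.

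Of the 11, 3 were of Adora2a, on 2 arrays. Probe set 1368300_at was high in the frontal cortex of risperidone replicate 1 (7.07, next 5.72, share 0.956) and low in the striatum of risperidone replicate 3 (10.16, next 11.16, share 0.727). Probe set 1368301_at was low in the same striatum (8.52, next 9.66, share 0.713). On that cortical array the projection neuron markers were 0.69 above the median of their region, and on that striatal array the pyramidal neuron markers were 1.90 above it. In frontal cortex 1368301_at had no risperidone array above the vehicle range.

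Oprl1 1369646_at was high in the hippocampus of vehicle replicate 1 (7.53, next 7.24, share 0.718). Adora1 1387721_at was low in the frontal cortex of haloperidol replicate 2 (7.96, next 8.03, share 0.722), a gap of small size.

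The other 6 were in probe sets with low values. Oprk1 1368198_at was high in the hippocampus of haloperidol replicate 4 (5.49, next 5.09, share 0.842) and Oprk1 1387102_at in the frontal cortex of vehicle replicate 3 (4.89, next 4.72, share 0.712). Oprm1 1387461_at was low in the frontal cortex of risperidone replicate 2 (4.89, next 5.01, share 0.804) and of haloperidol replicate 1 (4.88, next 5.17, share 0.752). Oprd1 was high in the hippocampus of haloperidol replicate 4 (4.95, next 4.73, share 0.762) and in the frontal cortex of haloperidol replicate 5 (4.81, next 4.55, share 0.755).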

How the results depend on the processing

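The count of receptor probe sets called in striatum after risperidone, 2 of 7, was 0 when striatum was fitted on its own arrays, 0 without the 10 arrays high in neighboring tissue markers, 0 with those markers as a covariate, 1 after quantile normalization and 1 with a filter at the 60th percentile, where 4 receptor probe sets were tested. It was 1 without the 5 striatal arrays high in choroid plexus and meningeal markers, a setting chosen after seeing the data. Leaving out 1 rat gave 0 to 3. That filter also lowered the counts between striatum and frontal cortex to 3 (of 4 tested) and between striatum and hippocampus to 4 (of 4 tested), because fewer receptor probe sets were tested. The count for the effect of risperidone in striatum against frontal cortex, 0, was 0 to 2 when 1 rat was left out. Where no cause is given, the cause was not tested. Without the replicate block the count in striatum after risperidone was 2, and with the replicate block as a fixed term the paired counts between regions were 6, 7 and 4, as in the fit reported, and no other count of receptors changed. For the 9 calls of pathway genes in the difference of the risperidone effect between regions, all but Slc29a1 in striatum against hippocampus were lost without the replicate block (adjusted p 0.0670 to 0.120), and Adk 1369630_at, Entpd3 and Rgs4 with the block as a fixed term (0.0687 to 0.0811). Of 62 values of receptor probe sets over these settings, 47 repeats lost a call, 5 gained one and 1526 kept their side. For 33 values of pathway genes 179 lost a call, 2 gained one and 678 kept their side. Uncalled values that stayed uncalled are among those kept, so the totals do not describe the drug calls. In striatum after risperidone the call of Cnr1 1387674_at was lost in 2 of 15 fits without 1 rat and 3 of 11 other settings. For Oprl1 1369646_at this was 9 of 15 and 5 of 10, and for 1369645_at 6 of 15 and 4 of 9. Among values past the unadjusted limit none changed sign, while small region differences that did are given above. The counts between regions otherwise moved by 1 or 2 at most. With 5 rats per group, small changes of Oprm1, Oprd1 and Oprk1 were not resolved. Oprm1 and Oprd1 lay near the lower end of the intensity range in every region, and Oprk1 did so in hippocampus and frontal cortex.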
